A study of Mus musculus with 12 samples.

Results

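The PIM kinase hairpins are the 13 short hairpin RNAs (shRNAs) of a pooled mouse kinase library whose gene symbol is PIM1, PIM2 or PIM3. They were picked out by symbol from 3243 hairpins for 732 gene symbols, and the family was chosen with earlier results of these data known. Hairpins 1592, 1593 and 1595 target Pim1, hairpins 1413 to 1417 target Pim2 and hairpins 1398 to 1402 target Pim3. In GRCm38.p6, Pim1 lies on chromosome 17 from 29490785 to 29496111, Pim2 on chromosome X from 7878306 to 7883432 and Pim3 on chromosome 15 from 88862194 to 88865726. The position of each hairpin's target site within these genes was not analysed here.

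PIM1, PIM2 and PIM3 are serine/threonine kinases, and Pim1 is named after the proviral integration sites of Moloney murine leukaemia virus near which it was found. They lack a regulatory domain and are active as soon as they are made, so that their activity follows their amount. JAK-STAT signalling induces their transcription, and in mouse embryonic stem cells (ESCs) LIF, the cytokine that keeps these cells pluripotent, acts through STAT3 on Pim1 and Pim3. PIM kinases share substrates with AKT, among them the pro-apoptotic protein BAD, and act on the translation machinery beside mTOR. The study names PIM1 as a known interactor of UHRF1 and as a target of hairpins enriched in the screen described below. UHRF1 is the protein that recognizes hemimethylated DNA and recruits the maintenance methyltransferase DNMT1.

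The screen asked which kinases act on UHRF1 in mouse E14 ESCs that express a UHRF1-GFP transgene, in which GFP reports UHRF1 indirectly. All groups carried the transgene and the TRC lentiviral kinase library, which was introduced in Serum/LIF. The 4 groups of 3 libraries (replicates A, B and C) were the 2i GFP+ and 2i GFP- fractions, sorted by fluorescence after 7 days in 2i medium (the MEK inhibitor PD0325901 and the GSK3 inhibitor CHIR99021 with LIF), the unsorted Serum/LIF day 7 cells and the unsorted Serum/LIF day 0 cells collected at the split. UHRF1 is lost in 2i, so a hairpin whose knockdown retains UHRF1-GFP would collect in the GFP+ fraction. The cells are a single line, and the knockdown by each PIM hairpin was not analysed here. The study describes its screen replicates as biological, from selected cells cultured in triplicate. It does not describe an infection for each, so p-values cover the spread between these libraries.

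Total counts were between 2435551 and 5466825 per library. The 2i GFP+ libraries held fewer kinds of hairpin than the others, with 1538 to 1906 detected against 2782 to 3053 elsewhere, and among them replicate B differed from the other 2. Over all 3243 hairpins, the Spearman correlation of counts was 0.741 for A with B and 0.738 for B with C, against 0.933 for A with C. These include 1069 hairpins with no count in any 2i GFP+ library, which are tied at 0. Levels are given as CPM (counts scaled to a common library size) corrected by TMM, a factor that aims to balance libraries over a trimmed set of hairpins. The factor was 0.63 to 0.712 in 2i GFP+, which raises the CPM there, and 1.08 to 1.21 elsewhere. In 2i GFP+ against 2i GFP-, all tested hairpins still had a median log2 fold change of -0.88. A hairpin was called in a comparison where edgeR's quasi-likelihood test gave a Benjamini-Hochberg adjusted p under 0.05 over all tested hairpins, and the log2 fold change was also beyond 1 in either direction. All 13 PIM hairpins passed the filter on low counts in each of the 5 comparisons.

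The PIM hairpins were well represented at the start. At Serum/LIF day 0 their mean levels ranged from 7.26 CPM for hairpin 1416 of Pim2 to 1406 CPM for hairpin 1417 of the same gene, a 194-fold range. Their median was 221 CPM, against 116 CPM over all hairpins, and 11 of the 13 lay above that median. Together they took 0.424% to 0.685% of the counts of a library. In 2i GFP+, 11 of the 13 were detected in all 3 libraries and 13 in at least 2, against 40.2% and 56.5% of all hairpins. Of the 2980 hairpins at least as abundant at day 0 as the rarest PIM hairpin, 60.5% were detected in at least 2 of the 3 2i GFP+ libraries. That cut keeps most of the 3243 hairpins, so it does not match the PIM hairpins in abundance.

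Between 2i GFP+ and 2i GFP-, 1 PIM hairpin was called higher (Pim1 1595) and 1 lower (Pim2 1414). Over all 2600 hairpins tested, 8.58% were called higher and 23.5% lower. The median log2 fold change was 0.41 over the 13 PIM hairpins and -0.88 over all hairpins tested, and 9 of the 13 lay above that overall median. This contrast was not matched for day 0 abundance (median 221 against 116 CPM), and no shift of the family is read from it. Against Serum/LIF day 7, 2 PIM hairpins were called higher and 2 lower, where 9.81% of 2906 tested hairpins were called higher and 31.9% lower. Against Serum/LIF day 0, 2 were called higher and 1 lower, where 10.2% of 2670 were called higher and 25.0% lower. These 3 comparisons share the same 2i GFP+ libraries. With 13 hairpins, 1 or 2 calls in a direction beside these shares are not a result about the family. The study lists PIM1 among the genes with at least 2 hairpins enriched in 2i GFP+ over 2i GFP-. With edgeR's exactTest, which the study used, 1595 was here the only PIM hairpin called higher, as 9.27% of all hairpins were.

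Of the 3 Pim1 hairpins, 2 had every 2i GFP+ library above every library of the other groups. The share of all hairpins whose libraries separate in this way, here or between other groups below, was not analysed here. Hairpin 1595 had 854, 624 and 1035 CPM in the 2i GFP+ libraries (A, B, C), against 279, 294 and 374 CPM in 2i GFP-. It had 136, 209 and 183 CPM at Serum/LIF day 7 and 363, 175 and 460 CPM at day 0. Every 2i GFP+ library lay above all 9 others. The log2 fold change was 1.46 against 2i GFP- (SE 0.344, adjusted p = 0.0187, edgeR's quasi-likelihood test) and 2.31 against Serum/LIF day 7 (SE 0.348, adjusted p = 0.00348). Relative to Serum/LIF day 0 it was 1.33 (SE 0.477, adjusted p = 0.0779), and this comparison did not pass. The call against 2i GFP- was lost without 2i GFP+ replicate A (adjusted p = 0.0652) or C (adjusted p = 0.0633), when any 1 of the 2i GFP- libraries was left out, and with libraries scaled by total count (log2 fold change 0.75, adjusted p = 0.201).

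Hairpin 1593 of Pim1 had 442, 1664 and 406 CPM in 2i GFP+, against 290, 248 and 388 CPM in 2i GFP-. It had 190, 123 and 169 CPM at Serum/LIF day 7 and 98.5, 143 and 147 CPM at day 0. The 2i GFP+ libraries again lay above all others, with replicate B about 4 times as high as the other 2 (4.10 times the lowest). The log2 fold change was 2.47 against Serum/LIF day 7 (SE 0.704, adjusted p = 0.0336, edgeR's quasi-likelihood test) and 2.74 against Serum/LIF day 0 (SE 0.729, adjusted p = 0.0267). Both calls held without replicate B, at 1.41 (adjusted p = 0.00453) and 1.72 (adjusted p = 0.00758). Both were lost when any 1 of the 3 Serum/LIF libraries compared was left out, at log2 fold changes of 2.31 to 2.61 against day 7 and 2.60 to 2.83 against day 0. Scaling by total count also ended both, at 1.61 (adjusted p = 0.0933) and 1.82 (adjusted p = 0.0834, edgeR's quasi-likelihood test), and RLE scaling ended the day 7 call, at 2.39 (adjusted p = 0.0506). Against 2i GFP- the log2 fold change was 1.54 (SE 0.684, adjusted p = 0.147), and without replicate B it was 0.47 (adjusted p = 0.189).

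Both hairpins were also above Serum/LIF day 7 in the 2i GFP- fraction, in all 3 libraries each. The log2 fold changes there were 0.95 for hairpin 1593 (adjusted p = 0.0388, edgeR's quasi-likelihood test) and 0.85 for hairpin 1595 (adjusted p = 0.0396), under the limit of 1 set for a call. With no limit on the fold change, 8.86% of all tested hairpins passed the adjusted p as higher and 8.42% as lower.

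The third Pim1 hairpin, 1592, had 0, 1311 and 50 counts in the 2i GFP+ libraries, that is 0, 855 and 15.3 CPM. A count of 0 in replicate A allows a level of up to 1.01 CPM, which covers counting error only. In the 9 other libraries it was between 118 and 225 CPM, and in 2i GFP- its coefficient of variation (CV) was 4.01%. Its level in 2i GFP+ was therefore above all other libraries in 1 replicate and below them all in the other 2. Against 2i GFP- the log2 fold change was 1.16 (95% interval -4.14 to 6.46, adjusted p = 0.735, edgeR's quasi-likelihood test), and without replicate B it was -4.21 (adjusted p = 0.0745). Summed over its 3 hairpins, Pim1 had 1965 ± 1023 CPM in 2i GFP+, 767 ± 120 CPM in 2i GFP-, 466 ± 19.7 CPM at Serum/LIF day 7 and 622 ± 148 CPM at day 0 (SD, n = 3 each), a sum that does not show that the hairpins differ.

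Pim2, an X-linked family member known as a survival kinase of blood cells, had the PIM hairpin with the lowest mean in 2i GFP+, 3.82 CPM. Hairpin 1414 had 13, 2 and 19 counts in the 2i GFP+ libraries (4.36, 1.30 and 5.81 CPM), against 388, 325 and 323 counts in 2i GFP- (112, 89.9 and 113 CPM). It had 119, 137 and 132 CPM at Serum/LIF day 7 and 98.5, 83.9 and 81.9 CPM at day 0. All 3 2i GFP+ libraries were far below all 9 others, which lay within a narrow range. The log2 fold change was -4.71 against 2i GFP- (SE 0.871, adjusted p = 0.00866), -5.01 against Serum/LIF day 7 (SE 0.746, adjusted p = 0.00336) and -4.53 against Serum/LIF day 0 (SE 0.89, adjusted p = 0.00815), all by edgeR's quasi-likelihood test. These calls held whichever 1 library was left out. Such low levels were not particular to this hairpin. Of all tested hairpins, 21.5%, 28.4% and 24.9% had lower log2 fold changes than hairpin 1414 in these comparisons, in that order. In 2i GFP- against Serum/LIF day 7 its log2 fold change was -0.30 (adjusted p = 0.554), so the low level was measured in the GFP+ fraction.

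Hairpin 1417 of the same gene was the most abundant PIM hairpin. It had 3348, 2098 and 3174 CPM in 2i GFP+, against 1753, 2008 and 1698 CPM in 2i GFP-. It had 2219, 2354 and 2050 CPM at Serum/LIF day 7 and 1241, 1510 and 1466 CPM at day 0. The 2i GFP+ libraries lay above those of 2i GFP- and of Serum/LIF day 0, and overlapped those of Serum/LIF day 7. It was called higher against Serum/LIF day 0, by 1.03 (SE 0.237, adjusted p = 0.0146, edgeR's quasi-likelihood test), just past the limit of 1. That call was lost in 9 of 14 alternative fits, among them those without 2i GFP+ replicate A (0.87, adjusted p = 0.0923) or C (0.92, adjusted p = 0.0834) and those without 1 of the day 0 libraries. Against 2i GFP- the log2 fold change was 0.70 (adjusted p = 0.0551), and -0.0023 with libraries scaled by total count.

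The other 3 Pim2 hairpins were not called in any comparison. Hairpin 1413 had 195, 7.83 and 193 CPM in 2i GFP+, against 489, 507 and 345 CPM in 2i GFP-, with every 2i GFP+ library below every 2i GFP- library. Its log2 fold change was -1.74 (adjusted p = 0.276, edgeR's quasi-likelihood test), and without replicate B, the lowest library, -1.20 (adjusted p = 0.0121). Hairpin 1415 had 503, 119 and 847 CPM in 2i GFP+, against 343, 456 and 325 CPM in 2i GFP-, and the groups overlapped. Hairpin 1416 was rare throughout, with 5, 25 and 1 counts in 2i GFP+ and 26 to 46 counts in each other library. Against Serum/LIF day 7 its log2 fold change was -0.15 (adjusted p = 0.941, edgeR's quasi-likelihood test), and without replicate B, its highest 2i GFP+ library, it was -2.81 (adjusted p = 0.0327). Against 2i GFP- it was -0.30 (adjusted p = 0.892), and -2.97 (adjusted p = 0.053) without that library.

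Pim3, the family member first described as a kinase induced by depolarization and forskolin in rat cells, had no hairpin called between 2i GFP+ and 2i GFP-. Its hairpin 1399 was the nearest, with 24.8, 15.7 and 27.8 CPM in 2i GFP+, against 82.0, 76.9 and 111 CPM in 2i GFP-. It had 161, 176 and 138 CPM at Serum/LIF day 7 and 284, 30.4 and 148 CPM at day 0. The 2i GFP+ libraries lay below all 9 others, of which the lowest was day 0 replicate B. The log2 fold change was -2.74 against Serum/LIF day 7 (SE 0.515, adjusted p = 0.00694, edgeR's quasi-likelihood test), and this call held whichever 1 library was left out. It was -1.93 against 2i GFP- (SE 0.657, adjusted p = 0.0712) and -2.79 against Serum/LIF day 0 (SE 1.02, adjusted p = 0.0814). Against Serum/LIF day 7 the median over all tested hairpins was -1.42, and 39.1% of them had a lower log2 fold change than hairpin 1399. Against 2i GFP- and Serum/LIF day 0, 38.8% and 34.7% had a lower one.

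Of the remaining Pim3 hairpins, 1398, 1401 and 1402 differed widely between the 2i GFP+ libraries. Hairpin 1401 had 427, 3877 and 379 CPM in 2i GFP+, against 338, 648 and 294 CPM in 2i GFP- and 1005, 1113 and 1161 CPM at Serum/LIF day 7. Replicate B was the highest of all 12 libraries, while replicates A and C lay below every Serum/LIF library. The log2 fold change against Serum/LIF day 7 was 0.62 (adjusted p = 0.653, edgeR's quasi-likelihood test). Without replicate B its sign turned, to -1.43 (adjusted p = 0.00038).

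Hairpin 1398 showed the reverse, with 96.6, 0 and 148 CPM in 2i GFP+, against 268, 271 and 347 CPM in 2i GFP-. The count of 0 in replicate B allows up to 1.96 CPM. Without that library the log2 fold change was -1.26 against 2i GFP- (adjusted p = 0.0264) and -2.54 against Serum/LIF day 7 (adjusted p = 0.000629), both past the threshold of edgeR's quasi-likelihood test, against -1.84 (adjusted p = 0.458) and -3.10 (adjusted p = 0.194) with it. Hairpin 1402 had 18.8, 331 and 44.9 CPM in 2i GFP+, against 263, 152 and 200 CPM in 2i GFP-, and hairpin 1400 had 37.9, 37.8 and 66.9 CPM against 13.5, 71.7 and 15.7 CPM. Both overlapped between the 2 fractions and neither was called. For hairpin 1400 the CV was 35.3% in 2i GFP+, below the 98.0% of 2i GFP-, the 69.6% of Serum/LIF day 7 and the 56.8% of day 0. Without replicate B, hairpin 1402 passed at -2.68 (adjusted p = 0.011).

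Over the 13 PIM hairpins, 2i GFP+ replicate B was the library farthest from the other 2 for 12. It was above the mean of A and C for 5 hairpins and below it for 8, and 7 differed from it by more than 4-fold (with 1 CPM added to each level), against 45.4% of the 2600 hairpins tested. The median absolute log2 ratio was 2.49 for B against the mean of A and C, but 0.34 for C against A. Over the 2600 hairpins these medians were 1.65 and 0.27. The median CV over the PIM hairpins was 81.5% in 2i GFP+, 19.0% in 2i GFP-, 12% at Serum/LIF day 7 and 19.7% at day 0, against 85.7%, 29.8%, 19.5% and 36.4% over all hairpins measured in each group. Leaving out replicate B changed the PIM hairpins called between 2i GFP+ and 2i GFP- to 1 higher and 5 lower, with 1413, 1398, 1399 and 1402 added to 1414. Without it 15.4% of all tested hairpins were called higher and 38.5% lower.

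Outside the GFP+ fraction, the 3 calls came from 2 Pim3 hairpins, 1398 and 1401, and all rest on the same Serum/LIF day 7 libraries. None of these calls was made with all 4 groups in 1 fit, which called few hairpins of any gene in these comparisons. That fit called 0.436% of all hairpins higher and 0.201% lower in 2i GFP- against Serum/LIF day 7. In Serum/LIF day 7 against day 0 these shares were 0.363% and 0.132%. Between 2i GFP- and Serum/LIF day 7, no PIM hairpin was called higher and 2 were called lower, both of Pim3, where 4.16% of 2981 tested hairpins were called higher and 4.83% lower. At an unadjusted p under 0.05 there were 7 of the 13 PIM hairpins, against 29.4% of all tested. DESeq2 also called 0 PIM hairpins higher and 2 lower, with 5.90% and 8.02% of all hairpins. Hairpin 1398 had 268, 271 and 347 CPM in 2i GFP-, against 760, 817 and 574 CPM at Serum/LIF day 7, a log2 fold change of -1.27 (SE 0.183, adjusted p = 0.0021, edgeR's quasi-likelihood test). Hairpin 1401 had 338, 648 and 294 CPM in 2i GFP-, against 1005, 1113 and 1161 CPM at Serum/LIF day 7, a log2 fold change of -1.35 (SE 0.264, adjusted p = 0.00956). The groups did not overlap for either hairpin. The call of hairpin 1401 was lost without day 7 replicate C. Hairpin 1399 had a log2 fold change of -0.81 (adjusted p = 0.0945), with all 2i GFP- libraries below all day 7 libraries, and hairpins 1400 (-0.68) and 1402 (-0.23) overlapped between the groups.

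Between Serum/LIF day 7 and Serum/LIF day 0, 1 PIM hairpin was called higher and none lower, where 3.43% of 3028 tested hairpins were called higher and 4.00% lower. At an unadjusted p under 0.05 there were 5 of the 13 PIM hairpins, against 29% of all tested. Hairpin 1398 of Pim3 had 760, 817 and 574 CPM at day 7, against 226, 248 and 301 CPM at day 0, and rose by 1.48 (SE 0.193, adjusted p = 0.00383, edgeR's quasi-likelihood test). It was also called lower in 2i GFP- against the same day 7 libraries, and its 2i GFP- mean of 295 CPM stood beside 258 CPM at day 0. Hairpins 1401 (0.59, adjusted p = 0.0165), 1415 (0.63, adjusted p = 0.0436) and 1417 (0.66, adjusted p = 0.0095) passed the adjusted p but not the limit of 1, with all day 7 libraries above all day 0 libraries. With no limit on the fold change, 7.50% of all tested hairpins passed as higher and 5.8% as lower. Hairpin 1595 of Pim1 had a log2 fold change of -0.91 (adjusted p = 0.137), and the groups overlapped.

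The kinases around PIM in the same pathways were read from 4 lists, drawn up with earlier results of these data known. Their calls in 2i GFP+ against 2i GFP- stand beside 8.58% higher and 23.5% lower over all hairpins, and nothing particular to a list is read from them. Of the LIF-JAK kinases (JAK1, JAK2, JAK3 and TYK2), which act between the LIF receptor and STAT3 or in related cytokine receptors, 7 of 14 hairpins were tested, with none called higher and 2 lower. Of the AKT, mTOR and S6 kinases, 29 of 41 hairpins were tested, with 2 called higher and 6 lower. Of MAP3K5 and MARK3, 2 kinases that PIM1 is known to phosphorylate, 9 of 10 hairpins were tested, with 2 called higher and 2 lower. Of PASK, a PAS-domain kinase related to PIM by sequence, 4 of 5 hairpins were tested, with none called higher and 2 lower. The median log2 fold changes of the lists were -0.07, -0.72, 0.29 and -6.42 in that order, against -0.88 over all hairpins.

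In MARK3, hairpins on the same target were called in both directions. Hairpin 1393 of MARK3 averaged 1888 ± 264 CPM in 2i GFP+ and 213 ± 49.1 CPM in 2i GFP- (SD, n = 3 each), a log2 fold change of 3.21 (SE 0.31, adjusted p = 0.00356, edgeR's quasi-likelihood test). Hairpin 1391 of the same gene had no count in the 3 2i GFP+ libraries, against 881 counts in 2i GFP-, and was at least 70.5-fold lower taking 3 counts per library as the floor. Hairpin 1322 of FRAP1, the older symbol of mTOR, averaged 3058 ± 748 CPM in 2i GFP+ and 263 ± 143 CPM in 2i GFP- (log2 fold change 3.60, SE 0.495, adjusted p = 0.00737). Hairpins 560 of RPS6KB1, 2411 of TYK2 and 1363 of PASK had no count in 2i GFP+, against 1125, 575 and 537 counts in 2i GFP-, and were at least 86.5-fold, 44.1-fold and 42.1-fold lower.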

How the data were processed

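Integrated hairpins were amplified by PCR from genomic DNA of 12 libraries and sequenced. The authors aligned the reads with Bowtie2, counted them per hairpin and deposited raw counts with no normalization. For the tool versions and the hairpin reference, the sources used here give nothing. PCR reads carry no molecular identifiers, so floors cover counting error only. Intervals of fold changes come from the quasi-likelihood fit and cover the spread between libraries. Replicate titles hold the word combined, which is not explained.

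Each of 5 comparisons was fitted alone on the whole table with edgeR 4.0.16 in R 4.3.3 (glmQLFit, glmQLFTest, TMM), on hairpins that reached 0.5 CPM in 3 or more of its 6 libraries. The standard error is the log2 fold change over the square root of F. The printed CPM values carry TMM factors over all 12 libraries. The authors used edgeR's exactTest, run here as an alternative beside DESeq2 1.42.0, other scalings and filters, all 4 groups in 1 fit, the replicate block and each library left out. The procedure was tested on simulated counts in which no library stood apart as 2i GFP+ replicate B did, so that feature was not covered. Every PIM hairpin was named, with at most 1 hairpin per list and direction, that of the smallest p in 2i GFP+ against 2i GFP-. The family and the lists were chosen with earlier results of these data known, and the hairpins of the family were then taken by symbol. PDPK1, one of the listed AKT, mTOR and S6 kinases, was not analysed here. Gene positions come from RefSeq.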

Additional observations from a re-analysis of the deposited data

How the results depend on the processing

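Over 65 log2 fold changes of PIM hairpins, 844 of 905 alternative fits kept the call. The 12 calls held in 132 of their 168 fits, and hairpins not called were called in 25 of 737. Hairpin 1416 had the fewest counts outside 2i GFP+, 26 to 46 per library, and its CV was 145% in 2i GFP+, against 15.1% to 17.5% in the other groups.

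The number of PIM hairpins called between 2i GFP+ and 2i GFP- was 2. It was 4 with all 4 groups in 1 fit, where 11.4% of all hairpins were called higher and 32.9% lower. With 1 library left out it was 1 to 6, and the 6 came without 2i GFP+ replicate B (15.4% and 38.5% of all hairpins). Against Serum/LIF day 7 the number was 4, and 3 to 8 with 1 library left out. The 8 came without 2i GFP+ replicate B, where 16.8% of all hairpins were called higher and 47.6% lower. For 2i GFP+ against Serum/LIF day 0 the number was 3, then 5 by DESeq2 and 5 with all 4 groups in 1 fit. Over all hairpins DESeq2 called 11.3% higher and 36.1% lower, and the fit of all 4 groups 14.6% and 35.5%. With 1 library left out the number was 1 to 6, and the 6 came without 2i GFP+ replicate B (16.9% and 38.35% of all hairpins). For 2i GFP- against Serum/LIF day 7 the number was 2, then 0 with all 4 groups in 1 fit (0.436% higher and 0.201% lower over all hairpins). It was 4 with no limit on the fold change (8.86% and 8.42%) and 1 to 3 with 1 library left out. The 3 came without 2i GFP- replicate B (4.80% and 8.35%). For Serum/LIF day 7 against day 0 the number was 1, then 0 with all 4 groups in 1 fit (0.363% higher and 0.132% lower over all hairpins). It was 4 with no limit on the fold change (7.50% and 5.8%) and 1 to 2 with 1 library left out. The 2 came without day 0 replicate B (4.69% and 4.4%). In all these comparisons the cause was not tested.

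The study grew the 2i cells in triplicate and then sorted them, so a GFP+ and a GFP- library may be fractions of 1 culture. Whether equal letters mark 1 culture is not stated, and the main fits left libraries unpaired. Same-letter correlations of deviations from the group means ran from -0.07 to 0.024. With 3 libraries per group and 2i GFP+ replicate B apart from the other 2, these cannot show whether libraries were paired. With the letter as a replicate block, 0 PIM hairpins were called in the 3 comparisons of 2i GFP+ (66 higher and 1 lower over all hairpins against 2i GFP-), 2 in 2i GFP- against Serum/LIF day 7 and 1 in Serum/LIF day 7 against day 0. With the replicate block the log2 fold change of hairpin 1592 turned to -3.17 against 2i GFP-, to -3.03 against Serum/LIF day 7 and to -3.05 against day 0, and in the day 7 comparison hairpin 1400 turned to 0.036 and hairpin 1401 to -0.39.

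For 2i GFP+ against 2i GFP-, scaling by total count gave all hairpins a median log2 fold change of -1.60 in place of -0.88, and 14.8% of the called hairpins were higher in place of 26.8%. These shares were 13.4% in place of 23.5% against Serum/LIF day 7, and 14.7% in place of 28.9% against day 0. With this scaling, signs turned against 2i GFP- for hairpins 1415 (-0.25), 1417 (-0.0023) and 1400 (-0.17), against Serum/LIF day 7 for 1417 (-0.32) and 1401 (-0.29), against Serum/LIF day 0 for 1592 (-0.078) and 1415 (-0.23), and in Serum/LIF day 7 against day 0 for 1399 (-0.063).

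With 1 library left out, signs turned for hairpins whose ranges were, against 2i GFP-, -4.21 to 1.72 (1592), -0.22 to 0.86 (1415), -2.97 to 0.27 (1416) and -0.078 to 2.45 (1401). Against Serum/LIF day 7 the ranges were -4.08 to 1.71 (1592), -0.73 to 0.39 (1415), -2.81 to 0.27 (1416), -0.53 to 0.61 (1400) and -1.43 to 0.94 (1401). For day 0 they were -4.37 to 1.34 (1592), -0.12 to 1.02 (1415), -2.84 to 0.20 (1416) and -0.85 to 1.47 (1401). In 2i GFP- against Serum/LIF day 7 the range was -1.88 to 0.056 (1400), and in Serum/LIF day 7 against day 0 it was -0.46 to 0.014 (1592), -0.12 to 0.13 (1416) and -0.44 to 0.83 (1399). At the 10 CPM filter hairpin 1416 was not tested.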
